A study of Mus musculus with 6 samples.

Results

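Ly6a, Cd44 and 6 other genes linked to repair of the intestinal epithelium (Tnfrsf11b, Tubb6, Clu, Anxa1, Anxa3 and Ly6e) were followed through 6 libraries of total RNA from mouse small intestine. These 8 genes are taken by symbol from a table of 45777 genes. They were chosen by their read counts in these same 6 libraries, since Ly6a, Cd44, Tnfrsf11b and Tubb6 stood out between the groups, so every difference between the groups given for them is a description and not a test. The control group holds 3 libraries labelled GFP (replicates 1-1, 1-4 and 3-1) and the other group holds 3 labelled as overexpressing PKCzeta, the atypical protein kinase C encoded by Prkcz (replicates 2-1, 4-1 and 4-2). The first number of these names is shared by 1-1 and 1-4 and by 4-1 and 4-2, and the labels do not say what it stands for. All 6 titles begin with DIO. The sources used here do not explain that term, and give neither strain, age, vector and promoter nor the segment of intestine sampled.

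When the crypts of the intestine are injured, part of the epithelium leaves its usual programme for a while and takes on features of the fetal gut. Ly6a (also called Sca-1), Anxa1 and Clu are known marks of that state, which depends on the transcriptional coactivator YAP. Most of these genes are not confined to epithelium. Ly6a and Ly6e are surface proteins of lymphocytes and other cells and are induced by interferon, Cd44 and Anxa1 are abundant in leukocytes, Tnfrsf11b is made by stromal cells, and Clu is a strong product of the follicular dendritic cells of lymphoid follicles. In RNA from a whole piece of tissue, more cells of a type and more RNA per cell cannot be told apart.

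Libraries held 77573133 to 93742978 counts each, and mitochondrial genes took from 2.92% to 10.7% of them, with overlap between the groups. Epithelial markers summed to 12948 to 17585 CPM (counts scaled to library size by the same factor for every gene) in the controls and 13086 to 14046 CPM under the PKCzeta label, so both groups held epithelium. Prkcz, the gene said to be overexpressed, was not higher with the PKCzeta label: it stood at 70.5, 98.6 and 96.9 CPM in the controls against 82.5, 100.07 and 57.0 CPM, a log2 fold change of -0.15 (SE 0.24). An exact permutation test (two-sided) gave p = 0.7, where 3 against 3 cannot give less than 0.1. All directions here are therefore directions between labels. Over the 18456 genes tested by edgeR's quasi-likelihood test, 0 passed an adjusted p of 0.05, or 0%, with 1012 at an unadjusted p under 0.05. DESeq2 called 82, of which 44 were higher with the PKCzeta label, and limma voom called 0.

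Ly6a shares stretches of sequence with its neighbour Ly6c1, and a read that falls inside such a stretch can be assigned to either gene. Ly6a lies on chromosome 15 from 74994877 to 74998031 on the minus strand of mm10, inside a cluster of related genes, and Ly6c1 starts 49.1 kb further along. In the longest GENCODE coding sequences the longest run common to both is 45 bases, from base 37 to base 81 of each coding sequence, shown in capitals with 10 bases on either side:

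Ly6a: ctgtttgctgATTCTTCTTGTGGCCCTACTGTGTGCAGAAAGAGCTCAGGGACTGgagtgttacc
Ly6c1: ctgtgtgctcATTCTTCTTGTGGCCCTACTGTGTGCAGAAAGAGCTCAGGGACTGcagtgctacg

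Over the full protein-coding transcripts, 246 of the 1297 different 50-base windows of Ly6a (19.0%) also occur in transcripts of 4 other genes, and 195 of those windows occur in Ly6c1. The printed run of 45 bases is shorter than a window, so it holds none of those 195, which are not printed here. The sources used here give neither the read length nor the handling of reads with several matches, so part of the Ly6a count is uncertain. Of the other 7 genes, Anxa3 shares 66 of 2825 windows with a gene model inside its own locus, Gm42603, and the remaining 6 share 0. Of the genes whose intervals overlap these 8, Gm28068 at Ly6a and 1500015L24Rik at Anxa1 have rows in the deposited table and reach at most 4 counts in any library, against 317 to 15830 counts for the 8 genes.

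Upstream sequence was found for 2 of the 8 genes, Cd44 and Anxa1, in the RefSeq promoter table (GRCm38.p6). The 250 bases before each start are shown for these 2 genes only because upstream sequence was found for no other of the 8. They were searched on both strands, with matches in capitals. The motifs were GGAATG (the core of TEAD sites, where YAP acts), TGANTCA (AP-1) and TTCNNNGAA (STAT factors). Also searched were the IRF element (GAAA, any 2 bases, GAAA) and CACCTG (an E-box bound by SNAI and ZEB factors). No match overlaps another. The Cd44 window lies at chr2:102901666-102901915 and the Anxa1 window at chr19:20390672-20390921, both on the minus strand:

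Cd44: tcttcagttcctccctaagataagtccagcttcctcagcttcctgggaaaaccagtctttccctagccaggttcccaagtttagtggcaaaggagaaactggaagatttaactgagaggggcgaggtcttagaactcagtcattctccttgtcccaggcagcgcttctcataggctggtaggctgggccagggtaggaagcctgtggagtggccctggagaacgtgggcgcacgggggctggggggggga
Anxa1: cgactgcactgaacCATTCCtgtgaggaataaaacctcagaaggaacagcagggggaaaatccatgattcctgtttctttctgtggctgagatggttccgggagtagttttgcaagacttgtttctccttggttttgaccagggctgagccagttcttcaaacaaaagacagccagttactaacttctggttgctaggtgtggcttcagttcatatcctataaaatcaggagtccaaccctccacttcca

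The Anxa1 window holds 1 match, the reverse complement of GGAATG, which starts 236 bases before the start site. That motif occurs in 12.6% of the 32851 windows of this length in the table, and TGANTCA, TTCNNNGAA, the IRF element and CACCTG in 6.75%, 7.02%, 2.98% and 17.2%. The Cd44 window holds none of the 5, which says only that these letters are not in this window.

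All 8 genes had a higher mean with the PKCzeta label, and they fell into 3 patterns across the libraries. Ly6a, Cd44, Tnfrsf11b and Tubb6 were more than 2-fold higher on average, with every PKCzeta-labelled library above every GFP-labelled one. Anxa1 and Anxa3 were higher mainly in PKCzeta replicates 4-1 and 4-2, which share the first number of their names; its part in these values was not tested. Clu and Ly6e followed B cell genes from library to library in both groups. For 5 of the 8 genes the groups' ranges did not overlap (Ly6a, Cd44, Tnfrsf11b, Tubb6 and Anxa3), where 4.72% of all tested genes did so in the higher and 5.66% in the lower direction; these 8 were chosen on this contrast, so nothing is read from that count. In edgeR 0 of the 8 had an adjusted p under 0.05 and 5 had an unadjusted p under 0.05. DESeq2 called 4 of them, Ly6a, Cd44, Tnfrsf11b and Tubb6, where it called 0.304% of the genes it gave an adjusted p as higher, and limma voom called 0.

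**Figure D1:**
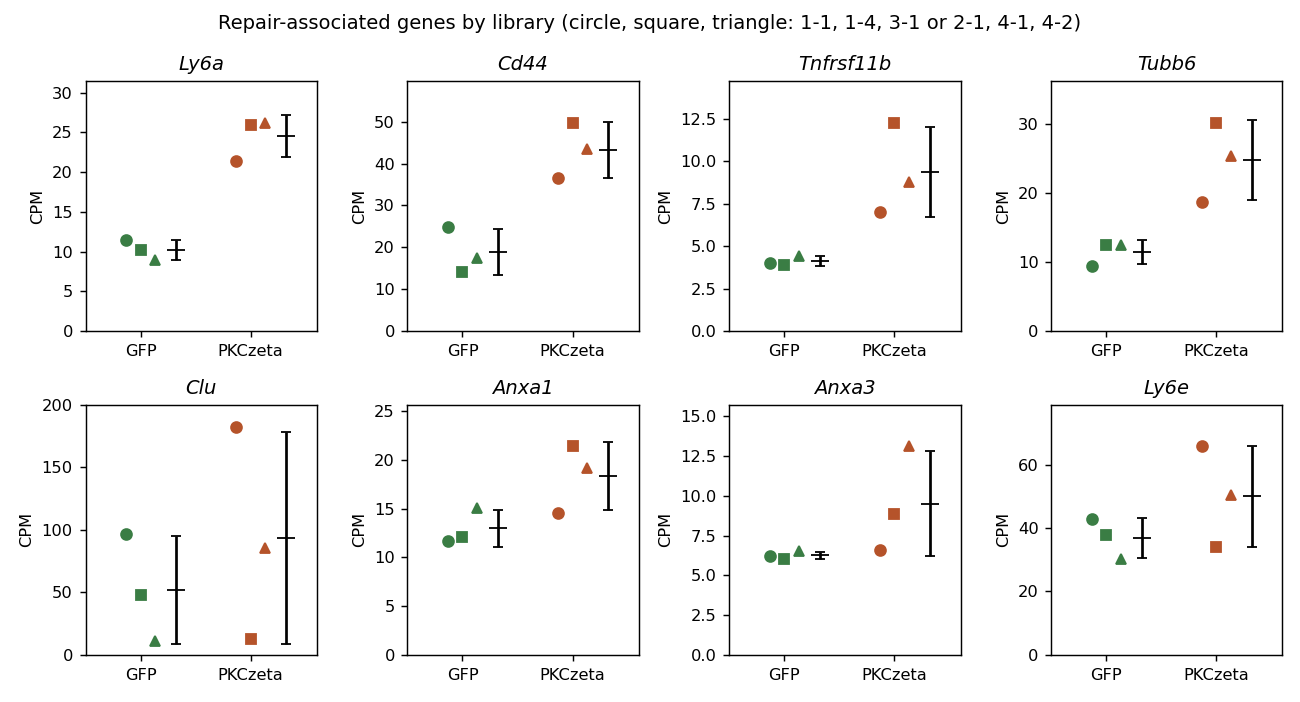
Level of each of the 8 genes in CPM (linear axis from 0) by group label, with 1 point a library and the mean and SD of 3 libraries in black. Ly6a, Cd44, Tnfrsf11b and Tubb6 do not overlap between the groups, while Clu runs from 10.97 to 182 CPM and overlaps.

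Ly6a, a small surface protein held in the membrane by a lipid anchor, gave the most even difference. It stood at 11.5, 10.2 and 8.96 CPM in control replicates 1-1, 1-4 and 3-1 and at 21.5, 26.0 and 26.2 CPM in PKCzeta replicates 2-1, 4-1 and 4-2, the order kept for all other genes. The lowest PKCzeta-labelled library was 1.87 times the highest GFP-labelled one, the widest gap among the 8 genes. The means were 10.2 ± 1.26 and 24.5 ± 2.67 CPM (SD, n = 3), which is a log2 fold change of 1.27 (SE 0.19). Leaving out any 1 library kept it between 1.18 and 1.35.

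The tested neighbours of Ly6a in its gene cluster, such as Ly6c1, Ly6c2, Ly6d and Ly6m, overlapped between the groups. Ly6g, a neutrophil marker of the same cluster with too few counts for the test, was at 0 CPM in the 3 controls and at 0.0345, 0.123 and 0.861 CPM under the PKCzeta label. Ly6c1 was at 5.03, 6.33 and 4.43 CPM in the controls and 5.05, 9.25 and 7.29 CPM under the PKCzeta label, with a log2 fold change of 0.45 (SE 0.29), and in PKCzeta replicate 2-1 it was within the GFP range while Ly6a was not. Ly6m, which had the highest counts of the cluster, was at 723 ± 201 against 433 ± 191 CPM (SD, n = 3; log2 fold change -0.74, SE 0.37). Of the 17 tested genes in a list of the wider Ly6 family, 8 were higher and 9 lower. Their median log2 fold change was -0.056, against 0.035 over all tested genes, and 0 passed the edgeR test or DESeq2 (0 at an unadjusted p under 0.05).

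**Figure D2:**
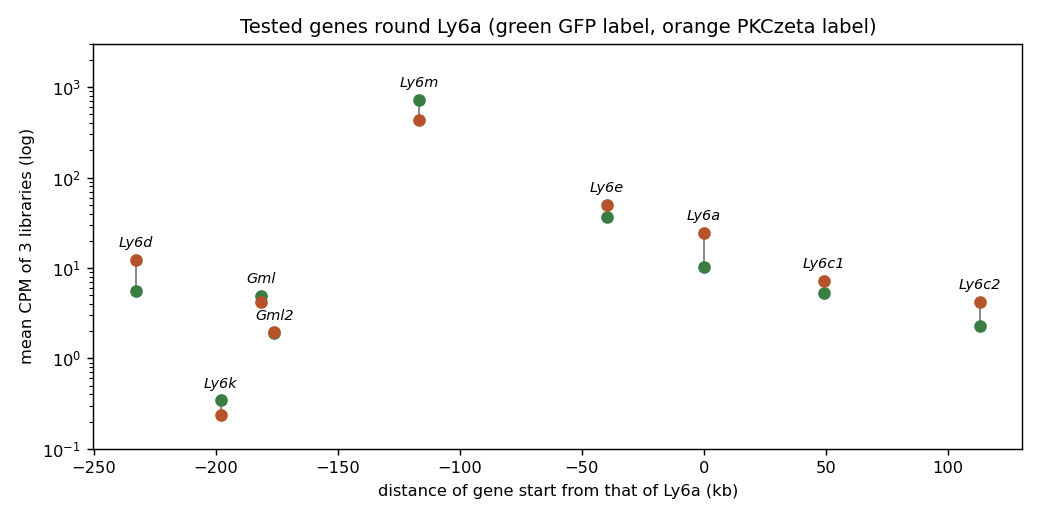
Mean CPM of 3 libraries (log axis) of the tested genes round Ly6a against the distance of their start from that of Ly6a in kb, green for the GFP label and orange for the PKCzeta label. Ly6a has 10.2 and 24.5 CPM, whereas Ly6c1 has 5.26 and 7.20 and the order is the opposite at Ly6m.

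Interferon is a known inducer of Ly6a. Among the genes of its signalling inputs, Ifng, the gene of interferon gamma, was at 0.111 CPM or less in every library. Its receptor genes Ifngr1 and Ifngr2 had log2 fold changes of -0.074 (SE 0.17) and -0.40 (SE 0.23). Jak1 and Jak2, the kinases on those receptors, had -0.002 (SE 0.21) and -0.15 (SE 0.18). Of 17 tested genes in this list, 7 were higher and 10 lower (median -0.044), and 0 had an unadjusted p under 0.05, where 5.48% of all tested genes did. As in the whole table, 0 passed edgeR, and 0 passed DESeq2. Gbp3, an interferon-inducible gene outside the list and one of the 5 genes nearest to Ly6a in pattern, averaged 7.53 CPM in the controls and 14.1 CPM under the PKCzeta label.

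Cd44, the main receptor for the matrix sugar hyaluronan and a Wnt target of crypt cells, stood at 25.0, 14.2 and 17.6 CPM in the controls and 36.5, 49.8 and 43.5 CPM under the PKCzeta label. The groups did not overlap, but GFP replicate 1-1 lay well above the other controls. The means were 18.9 ± 5.53 and 43.2 ± 6.65 CPM (SD, n = 3), which is a log2 fold change of 1.19 (SE 0.24) that ran from 1.02 to 1.43 when any 1 library was left out. Cd44 (chromosome 2 from 102811141 to 102901669) is spliced into many isoforms, which the deposited counts per gene do not separate.

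The enzymes that make the ligand of CD44 had low counts. Has1, Has2 and Has3, the hyaluronan synthases, had means of 2.77 against 1.36, 1.64 against 3.90 and 0.131 against 0.143 CPM, with log2 fold changes of -1.02 (SE 0.48), 1.25 (SE 0.82) and 0.13 (SE 0.61). The groups overlapped for each of the 3, and Has2 was highest in PKCzeta replicate 4-2 at 7.17 CPM. Ezr, which links CD44 to the actin skeleton, was at 1321 ± 316 against 1017 ± 269 CPM (SD, n = 3), and Esrp1, an epithelial splicing factor known to act on Cd44 transcripts, at 66.3 ± 4.94 against 76.4 ± 11.7 CPM. Hyal2, a hyaluronidase, and Cemip2, a hyaluronan-degrading surface protein, had log2 fold changes of -0.39 (SE 0.23) and 0.023 (SE 0.20).

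Of the 25 genes of hyaluronan and the CD44 partners, 17 were higher and 8 lower (median log2 fold change 0.20). In edgeR and DESeq2 0 passed, and at an unadjusted p under 0.05 there were 4, all higher with the PKCzeta label, where 2.41% of all tested genes were. They are named after their values were seen: Vcan and Srgn, proteoglycan genes, had log2 fold changes of 1.85 (SE 0.62) and 0.94 (SE 0.29), the matrix protease gene Mmp14 had 0.53 (SE 0.22), and Spp1, the gene of the CD44 ligand osteopontin, had 2.25 (SE 0.93). Of these, Srgn alone did not overlap between the groups. Vcan was at 4.51, 2.46 and 3.29 CPM in the controls against 3.74, 24.3 and 8.99 CPM. Spp1 was at 0.479, 0.377 and 0.363 against 0.609, 4.84 and 0.354 CPM. PKCzeta replicate 4-1 was thus far the highest for both.

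Tnfrsf11b encodes osteoprotegerin, a secreted decoy receptor that binds RANKL and TRAIL. It stood at 4.00, 3.89 and 4.44 CPM in the controls and 7.03, 12.3 and 8.79 CPM under the PKCzeta label. The controls were close to each other, and PKCzeta replicate 4-1 was highest. The means were 4.11 ± 0.295 and 9.36 ± 2.66 CPM (SD, n = 3), which is a log2 fold change of 1.19 (SE 0.26), or 0.94 without PKCzeta replicate 4-1 and 1.33 without replicate 2-1. The gene lies on chromosome 15 from 54250619 to 54278484.

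The ligands and the signalling receptor of this axis overlapped between the groups. Tnfsf11, the RANKL gene, was at 2.96, 1.17 and 0.472 CPM in the controls and 6.66, 0.639 and 3.65 CPM under the PKCzeta label, and its lowest PKCzeta-labelled library was the one where Tnfrsf11b was highest. For Tnfrsf11a, the gene of the receptor RANK, the log2 fold change was -0.60 (SE 0.33), and for Tnfsf10, the TRAIL gene, -0.25 (SE 0.45). Those of Tnfrsf1a, a TNF receptor gene, and Marcksl1 were -0.44 (SE 0.18) and -0.11 (SE 0.25). Of the 14 genes in the list, 8 were higher and 6 lower (median 0.27), and 0 passed edgeR or DESeq2, with 1 in each direction at an unadjusted p under 0.05: Tnfrsf1a was the lower one, and the chemokine gene Ccl9 (0.55, SE 0.18), named after its value was seen, the higher.

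Tubb6 encodes a beta tubulin that is known to make microtubules less stable. Its level was 9.51, 12.5 and 12.5 CPM in the controls and 18.7, 30.2 and 25.4 CPM under the PKCzeta label. As for Cd44 and Tnfrsf11b, PKCzeta replicate 4-1 was highest and replicate 2-1 the lowest of its group, though still above all controls. The means were 11.5 ± 1.73 and 24.8 ± 5.79 CPM (SD, n = 3), which is a log2 fold change of 1.11 (SE 0.23), with 0.94 to 1.24 when any 1 library was left out. The other tubulins were split in direction: of 15 tested, 8 were higher and 7 lower, with a median of 0.014.

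Among the 4 tubulins with the highest counts, Tubb4b was at a log2 fold change of -0.32 (SE 0.26), Tubb5 0.26 (SE 0.26), Tuba1b 0.13 (SE 0.28) and Tuba1c -0.13 (SE 0.30). In edgeR and DESeq2 0 tubulins passed. Tubb2a, named after its value was seen, was the 1 gene of the list at an unadjusted p under 0.05 and was lower with the PKCzeta label (-0.65, SE 0.23). Tubb6 shares 0 of its 1709 windows of 50 bases with other genes, so its count does not draw on theirs by identical sequence of that length.

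**Figure D3:**
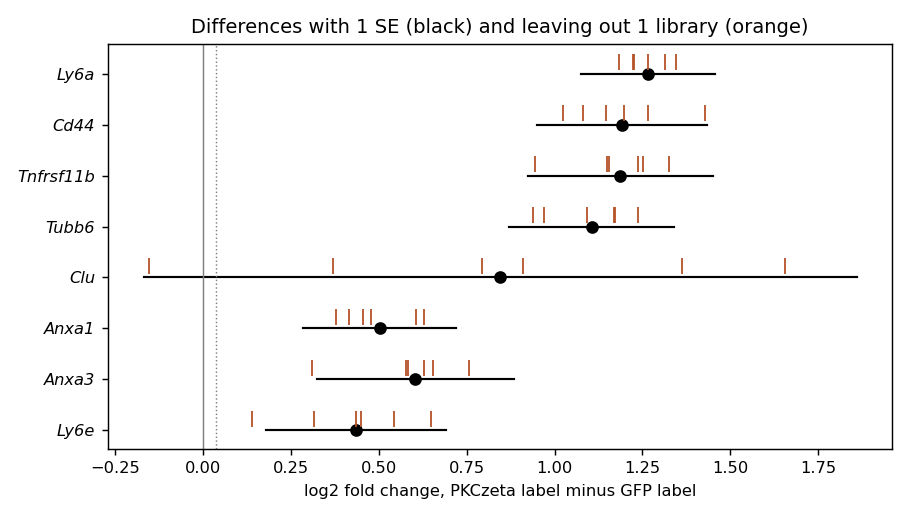
Log2 fold change of each gene, PKCzeta label minus GFP label, with 1 SE from edgeR (black) and the values when 1 library is left out (orange), beside 0 (solid line) and the median of all tested genes, 0.035 (dotted line). Clu runs from -0.15 to 1.66 as libraries are left out, while Ly6a stays between 1.18 and 1.35.

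Clu encodes clusterin, a secreted chaperone that marks the revival stem cells seen after crypt injury. It had the largest spread of the 8, at 96.9, 48.3 and 10.97 CPM in the controls and 182, 12.8 and 85.6 CPM under the PKCzeta label. The groups overlapped throughout, and the highest library was 16.6 times the lowest. The means were 52.0 ± 43.1 and 93.5 ± 84.9 CPM (SD, n = 3), with a log2 fold change of 0.84 (SE 1.02). Without PKCzeta replicate 2-1 it was -0.15, and without GFP replicate 1-1 it was 1.66, without GFP replicate 3-1 0.37 and without PKCzeta replicate 4-1 1.36.

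The spread of Clu went with genes of lymphoid follicles. The summed level of 3 B cell markers (Cd79a, Cd79b and Ms4a1, each with counts in every library) was 62.8, 29.5 and 2.93 CPM in the controls and 150.4, 3.18 and 64.6 CPM under the PKCzeta label, and within each group it put the 3 libraries in the same order as Clu. The 5 genes whose pattern over the 6 libraries was most like Clu, out of 12678, were Ly9, Fcrla, St8sia6, Tnfrsf13c and Pax5, with Pearson's r of log2 CPM of 0.998 to 0.999; Pax5, Tnfrsf13c and Fcrla are genes of B cells. Genes of follicular dendritic cells and follicle vessels, named after the values of Clu were seen, kept that order in both groups as well: Cr2 was at 16.8, 5.86 and 0.109 against 34.8, 0.258 and 17.2 CPM, Cxcl13 at 25.3, 8.99 and 1.31 against 58.4, 5.36 and 16.9 CPM and Madcam1 at 5.36, 2.88 and 1.21 against 9.76, 1.33 and 5.28 CPM. The part of follicle tissue in the Clu difference was not tested.

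Receptors that bind clusterin gave no common direction. Lrp2, the endocytic receptor megalin, was at 1.51, 0.389 and 0.956 CPM against 0.138, 0.344 and 0.0478 CPM (log2 fold change -2.44, SE 0.77). Vldlr and Lrp8 had 0.14 (SE 0.29) and 0.88 (SE 0.55), and Plxna4 had -0.60 (SE 0.36). Of the 5 receptors in the list 3 were higher and 2 lower, and 0 passed edgeR or DESeq2, with Lrp2 alone at an unadjusted p under 0.05.

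Ly6e, a lymphocyte antigen gene that lies 39.9 kb before Ly6a on the plus strand, stood at 42.8, 37.7 and 30.3 CPM in the controls and 65.7, 33.9 and 50.3 CPM under the PKCzeta label. Like Clu, it was highest in PKCzeta replicate 2-1 and lowest in GFP replicate 3-1, and it ordered the libraries of each group as the B cell markers did. The means were 37.0 ± 6.28 and 49.95 ± 15.9 CPM (SD, n = 3), which is a log2 fold change of 0.43 (SE 0.26), which was 0.14 without PKCzeta replicate 2-1. The genes most like it were Ptprc, the pan-leukocyte antigen CD45 (r = 0.996), Ly86, Lck, Rnf157 and Stap1 (r = 0.991 to 0.995). Tnfsf11 and Ly6d also put the libraries of both groups in that order, and Ly6d spanned 0.980 to 22.9 CPM. The part of lymphocytes in the Ly6e difference was not tested.

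**Figure D4:**
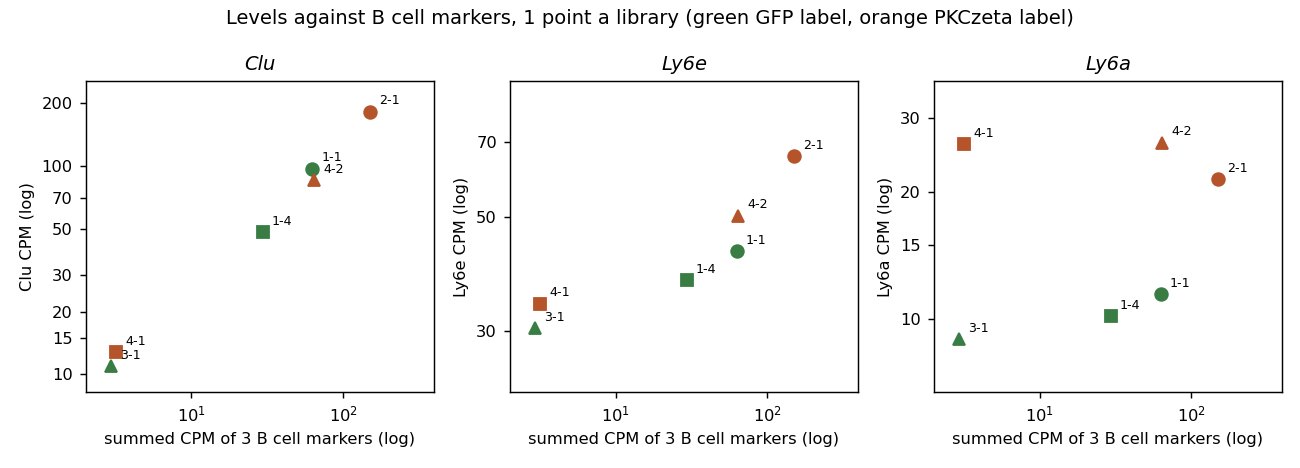
Level of Clu, Ly6e and Ly6a in CPM against the summed CPM of 3 B cell markers, both on log axes, with 1 point a library labelled by replicate. Clu and Ly6e climb with the B cell sum in both groups. Ly6a, chosen for its difference between the labels, is at 8.96 and 26.0 CPM where the B cell sum is 2.93 and 3.18 CPM.

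Ly6a followed the B cell order within the controls but not within the PKCzeta group. GFP replicate 3-1 and PKCzeta replicate 4-1 had nearly the same B cell sum, 2.93 and 3.18 CPM, and Ly6a was at 8.96 and 26.0 CPM in them. GFP replicate 1-1 and PKCzeta replicate 4-2 were likewise close, at 62.8 and 64.6 CPM, with Ly6a at 11.5 and 26.2 CPM. In the same pairs Clu was at 10.97 and 12.8 CPM, and at 96.9 and 85.6 CPM. Ly6a was chosen because it stood out between the groups, and all its PKCzeta-labelled libraries lay above all GFP-labelled ones. Any such pair therefore gives that direction, and the part of B cells in the Ly6a difference was not tested.

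Anxa1 encodes annexin A1, a membrane-binding protein that dampens inflammation through formyl peptide receptors. It was at 11.7, 12.1 and 15.1 CPM in the controls and 14.5, 21.4 and 19.1 CPM under the PKCzeta label. PKCzeta replicate 2-1 lay below GFP replicate 3-1, so the groups overlapped. The means were 12.96 ± 1.85 and 18.4 ± 3.48 CPM (SD, n = 3), which is a log2 fold change of 0.50 (SE 0.22). In the authors' TPM values, scaled to transcript length and to a fixed sum per library, Anxa1 did not overlap, with 9.92, 10.97 and 11.8 against 12.4, 20.9 and 21.9.

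Its receptors had low or no counts. Fpr2 was at 0.252, 0.137 and 0.835 CPM in the controls and 0.632, 2.10 and 1.44 CPM under the PKCzeta label (log2 fold change 1.77, SE 0.72, edgeR adjusted p 0.877), and Fpr1 did not exceed 0.492 CPM. Both were highest in PKCzeta replicate 4-1. Fpr2 was the 1 of 7 listed receptors with enough counts for the test (unadjusted p 0.0391), and Fpr3 and Fpr-rs3 had 0 counts in all libraries.

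Anxa3, an annexin of neutrophils and of other cells, had tight controls at 6.22, 6.06 and 6.50 CPM, and 6.60, 8.83 and 13.1 CPM with the PKCzeta label. Replicate 2-1 was 1.02 times the highest control, and replicate 4-2 was about 2 times the controls. The means were 6.26 ± 0.225 and 9.51 ± 3.30 CPM (SD, n = 3), which is a log2 fold change of 0.60 (SE 0.28), or 0.31 without PKCzeta replicate 4-2. The remaining annexins leaned the other way, with 3 of 9 tested higher and 6 lower (median -0.19).

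The highest counts among those annexins belonged to Anxa4 at 1356 ± 381 against 947 ± 260 CPM and Anxa2 at 1052 ± 136 against 921 ± 64.0 CPM (SD, n = 3), followed by Anxa13 (log2 fold change -0.36, SE 0.24) and Anxa7 (0.19, SE 0.19). In edgeR and DESeq2 0 annexins passed. At an unadjusted p under 0.05 there were Anxa6, higher (0.50, SE 0.16), and Anxa11, lower (-0.40, SE 0.15), both named after their values were seen.

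Genes that accompany Ly6a and Anxa1 in regenerating epithelium were split in direction. Of 25 listed genes 23 were tested, 13 were higher and 10 lower, and the median log2 fold change was 0.18. The genes of the list with the highest counts were Anxa2 (-0.19, SE 0.18), S100a10 (-0.16, SE 0.17), Emp1 (-0.27, SE 0.19) and Tgm2 (0.001, SE 0.21), and their groups overlapped. In edgeR and DESeq2 0 passed. At an unadjusted p under 0.05, S100a6 (0.87, SE 0.30) and Spp1 were higher and Msln (-1.61, SE 0.50), itself a mesothelial marker, and Gprc5a (-1.83, SE 0.71) lower, all 4 named after their values were seen. Spp1 and Gprc5a overlapped between the groups. Spp1 was highest in PKCzeta replicate 4-1. Gprc5a was at 8.19, 11.5 and 49.6 CPM in the controls and 7.59, 3.48 and 8.41 CPM under the PKCzeta label.

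YAP targets lay around 0. Of 21 tested, 10 were higher and 11 lower, with a median of -0.017. Ccn1 and Ccn2, the targets most often used as a readout of YAP, were at 3.91 ± 2.49 against 4.80 ± 1.00 CPM and 2.07 ± 0.414 against 2.24 ± 0.522 CPM (SD, n = 3), with log2 fold changes of 0.30 (SE 0.43) and 0.11 (SE 0.31). Nt5e, Crim1, Dock5 and Nuak2, which had the highest counts of the list, had -0.51 (SE 0.39), -0.59 (SE 0.22), -0.26 (SE 0.17) and -0.017 (SE 0.26). In edgeR and DESeq2 0 passed, with Crim1 lower and Fjx1 (1.12, SE 0.34, named after its value was seen) higher at an unadjusted p under 0.05.

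Yap1 itself was at 48.7 ± 2.81 against 59.1 ± 10.3 CPM (SD, n = 3; log2 fold change 0.28, SE 0.17). Among the Hippo kinases and their partners, Lats1 had -0.12 (SE 0.20), Stk4 0.23 (SE 0.20) and Mob1a 0.31 (SE 0.16). Of 14 genes in the list, 9 were higher and 5 lower (median 0.11), with 0 past edgeR or DESeq2 and 0 at an unadjusted p under 0.05.

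Crypt stem cell genes overlapped between the groups. Among tested growth factor genes of repair, Tff3 and Egfr (named after its value was seen) were lower without overlap, as were 5.66% of all tested genes. The others overlapped. Lgr5, the receptor gene that marks crypt base stem cells, was at 6.74 ± 2.15 against 7.55 ± 0.953 CPM, and Olfm4 at 485 ± 85.8 against 442 ± 116 CPM (SD, n = 3). Slc12a2, Lrig1 and Smoc2 had log2 fold changes of 0.23 (SE 0.17), 0.55 (SE 0.24) and 0.14 (SE 0.24). Of the 14 stem cell genes 9 were higher (median 0.092), and of 12 tested genes of EGF receptors, their ligands and regulators 4 were higher and 8 lower (median -0.26), with Tff3, a peptide of mucosal repair, at 1418 ± 155 against 1171 ± 41.1 CPM, Erbb3 at -0.25 (SE 0.27) and Erbb2 at -0.29 (SE 0.22). In edgeR and DESeq2 0 passed, and Lrig1, which is in both lists, was the 1 gene at an unadjusted p under 0.05. Over the 13 lists together 177 different genes were tested, 17 of them (9.60%) had an unadjusted p under 0.05, 10 higher and 7 lower, against 5.48% of all tested genes. The lists were chosen with earlier results of these data known, so nothing is read from that share.

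Some cell type markers also differed between the labels. Neutrophil markers (7 genes, with counts for each) summed to 5.17, 5.44 and 2.00 CPM in the controls and 6.27, 51.8 and 30.6 CPM under the PKCzeta label. These sums did not overlap between the groups. In PKCzeta replicate 2-1 the neutrophil sum was closest to the controls. There Ly6a was 1.87, Cd44 1.46, Tnfrsf11b 1.58, Tubb6 1.49 and Anxa1 0.964 times the highest GFP-labelled library. Ly6a, Cd44, Tnfrsf11b and Tubb6 were chosen because they stood out between the groups, so nothing about neutrophils is read from these ratios. Within the PKCzeta group, Cd44, Tnfrsf11b, Tubb6 and Anxa1 ordered the 3 libraries as the neutrophil sum did. Within the controls none of these genes kept the neutrophil order.

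Enterocyte markers (10 of 10 with counts) summed to 37525 to 47920 CPM with the GFP label and 15335 to 32351 CPM with the PKCzeta label, and mesothelial markers (5 of 5) to 21.1 to 28.5 and 9.21 to 13.4 CPM, both without overlap. Glial markers (4 of 4) summed to 2.80 to 4.18 and 4.89 to 10.99 CPM, also without overlap. Other cell types known to carry Ly6a, Cd44 or Tnfrsf11b overlapped between the groups: blood endothelium (8 of 8 markers) ran from 60.7 to 77.0 against 58.8 to 83.8 CPM, fibroblasts (7 of 7) from 382 to 448 against 325 to 533 CPM, T cells (7 of 7) from 14.0 to 22.6 against 16.9 to 34.3 CPM and macrophages (7 of 7) from 92.7 to 120 against 102 to 135 CPM. Marker by marker, 7 of 7 macrophage and 6 of 7 T cell genes were higher with the PKCzeta label (median log2 fold change 0.14 and 0.45). For blood endothelium 4 of 8 were higher and for fibroblasts 3 of 7. The part of neutrophils, enterocytes, mesothelium, glia, T cells and macrophages in the differences of the 8 genes was not tested.

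**Figure D5:**
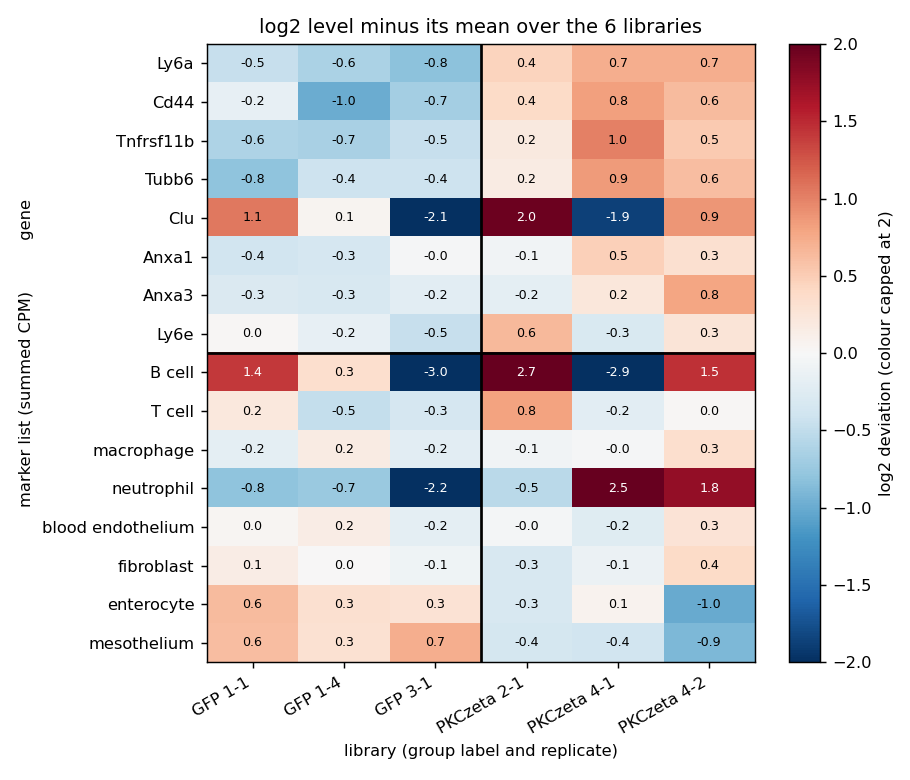
Log2 level minus its mean over the 6 libraries, for the 8 genes (upper block, log2 CPM) and for the summed CPM of 8 marker lists (lower block), with libraries in columns and colour capped at 2. The rows of Clu and Ly6e carry the signs of the B cell row in GFP replicates 1-1 and 3-1 and in all 3 PKCzeta-labelled libraries, and the rows of Ly6a, Cd44, Tnfrsf11b and Tubb6 are negative in the GFP and positive in the PKCzeta columns.

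The 8 genes thus differed in how they varied with each other. Over the 6 libraries Pearson's r of log2 CPM was 0.828 to 0.972 among Ly6a, Cd44, Tnfrsf11b and Tubb6, and 0.918 between Clu and Ly6e, but -0.140 to 0.232 between Clu and those 4 genes. The 6 points share their libraries, depth and scaling, and the 4 genes were chosen for the same group difference, so these values only describe. By library, PKCzeta replicate 4-1 was the highest for 4 of the 8 genes and replicates 2-1 and 4-2 for 2 each, and no GFP-labelled library was the highest for any. Of 12678 genes with a mean of at least 1 CPM, those most like Ly6a were Poli, Fgr, Gbp3, Naf1 and Vim (r = 0.968 to 0.982), and those most like Cd44 were Rhbdl3, Slc39a13, Trak2, Fgr and Pcdhb16 (r = 0.989 to 0.991). Fgr, a kinase gene of myeloid cells, stands in both sets, at 2.30 against 4.08 CPM on average.

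Levels between genes can be compared only per length, and in the authors' TPM the order in the GFP libraries was Clu (34.6 ± 28.5), Ly6e (18.6 ± 3.95), Ly6a (12.5 ± 2.11), Anxa1 (10.9 ± 0.917), Tubb6 (7.77 ± 1.30), Cd44 (4.71 ± 1.397), Anxa3 (4.61 ± 0.182) and Tnfrsf11b (1.71 ± 0.0299; SD, n = 3). Neighbours in this order whose libraries overlapped were Clu and Ly6e, Ly6e and Ly6a, Ly6a and Anxa1, and Cd44 and Anxa3. With the PKCzeta label Clu remained first at 68.3 ± 55.4 TPM and Ly6a was second at 35.6 ± 8.48, followed by Ly6e at 29.8 ± 7.63 TPM, and Tnfrsf11b remained last at 4.63 ± 1.52 TPM. The ranges of Ly6a and Ly6e overlapped there. Library by library, Ly6a was above Ly6e in PKCzeta replicates 4-1 (36.9 against 21.2 TPM) and 4-2 (43.4 against 35.6). It was below Ly6e in replicate 2-1 (26.6 against 32.6) and in every GFP library. Ly6a was chosen for its difference between the groups, so that change of order only describes.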

How the data were processed

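Total RNA of mouse small intestine was measured in 6 libraries, 3 with the GFP label and 3 with that of PKCzeta overexpression. Per the labels' protocols, libraries were made with a stranded kit for total RNA that depletes ribosomal RNA. The submitters' processing notes name HISAT2, StringTie, Trimmomatic and FastQC, and the build mm10, per the labels. The counting program and its strand setting are not given in the sources used here. No label says that the libraries come from separate animals, so p-values measure only the spread between these samples.

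Per the file headers, the deposited table holds whole-number counts, FPKM and TPM for every gene in each library. The deposited counts are not normalised. The authors' FPKM values (per length and depth) were not tested, and the authors' TPM values served for levels between genes and for an alternative test. All 45777 rows name a gene, and 45679 of their IDs matched the RefSeq table of the same build (GRCm38), as did all 8 genes described here.

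Counts were fitted with edgeR 4.0.16 in R 4.3.3 over the whole table: filterByExpr (18456 genes kept), TMM scaling and a two-sided quasi-likelihood F test with robust dispersion, with Benjamini-Hochberg adjustment over all tested genes and a threshold of 0.05. CPM use the same scaling, and log2 CPM have a prior count of 2. The SE is the log2 fold change divided by the root of F. The steps were tested on simulated counts.

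The 8 genes, the 13 pathway lists (208 genes, 207 found) and the 22 marker lists were chosen with earlier results of these data known. Genes named from a list are its 4 with the highest mean CPM and a few set by name (such as Yap1, Ccn1, Ccn2, Lgr5 and Olfm4); others are said to be named after their values were seen. A few items of these lists are not reported here. Genes nearest in pattern are named by rule for Ly6a and Cd44 (the 5 highest r among tested genes of at least 1 CPM with a proper symbol), and those of Clu and Ly6e were added after their values were seen. The alternatives were other scalings, filters, DESeq2 1.42.0, limma 3.58.1 (voom, and log2 TPM), fewer rows and each library left out.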

Additional observations from a re-analysis of the deposited data

How the results depend on the processing

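In all 15 alternatives the log2 fold changes of Ly6a, Cd44, Tnfrsf11b, Tubb6, Anxa1, Anxa3 and Ly6e stayed above 0. Clu was above 0 in 14 of them and stood at -0.15 without PKCzeta replicate 2-1. DESeq2, run on the same genes, called 82 genes instead of 0 and 4 of the 8 instead of 0; its adjusted p was 5.61e-06 for Ly6a (log2 fold change 1.25), 0.00877 for Cd44 (1.17), 0.0150 for Tnfrsf11b (1.17) and 0.0148 for Tubb6 (1.08). The other alternatives called 0 genes, and their adjusted p for Ly6a ran from 0.549 to 1.00. The cause of the difference between the tools was not tested.

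Leaving out 1 library at a time gave log2 fold changes from 1.18 to 1.35 for Ly6a, 1.02 to 1.43 for Cd44, 0.94 to 1.33 for Tnfrsf11b, 0.94 to 1.24 for Tubb6, -0.15 to 1.66 for Clu, 0.38 to 0.63 for Anxa1, 0.31 to 0.76 for Anxa3 and 0.14 to 0.65 for Ly6e, with 0 genes called each time. On log2(TPM + 1) and log2(TPM + 0.1) all tested genes had a median of 0.14 and 0.23, against 0.035 on counts, and Ly6e was at 0.64 and 0.67 and Anxa1 at 0.67 and 0.71 there. No paired analysis was possible because the replicate numbers of the 2 groups are all different. With 3 libraries a group the spread between libraries limits these values, and for genes near or under 0.1 CPM, such as Ifng, so does the count depth.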
